A study of Mus musculus with 6 samples.

Results

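A set of 10 genes of the retinoic acid pathway was followed through the making of oligodendrocytes from pluripotent mouse cells. The genes are Stra6, Aldh1a2, Dhrs3, Crabp1, Crabp2, Rara, Rarb, Rarg, Cyp26a1 and Cyp26b1, chosen by name for their place in the pathway, with earlier results of these data known. All 10 were measured, each by 1 transcript on the array, among 19938 genes in all. Rarb and Crabp2 stood out on the day 5 rosette array, 28.0-fold and 11.3-fold above the epiblast stem cells. In oligodendrocyte progenitor cells both were back down, 31.0-fold and 36.4-fold below the rosettes, with 4 other genes of the 10 lower as well.

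The cells were of mouse strain 129, and each culture was measured on 1 Affymetrix whole-transcript array, 6 arrays in all. Epiblast stem cells (EpiSCs, 1 array) are pluripotent cells like those of the epiblast after implantation, grown here with knockout serum replacement and FGF2. Patterned neural rosettes (1 array), labelled as ventral neural tube, were made from EpiSCs over 5 days with SB431542, Dorsomorphin and Noggin, which block activin/Nodal and BMP signalling, and with retinoic acid (RA) and sonic hedgehog (SHH). Oligodendrocyte progenitor cells (OPCs, 2 arrays, passages 3 and 11) came from dissociated rosettes and were expanded in N2B27 medium with FGF2, PDGF-AA and SHH. Oligodendrocytes (2 arrays, from OPCs of passages 3 and 11) were obtained from OPCs by giving thyroid hormone and withdrawing FGF2 and PDGF-AA. Retinoic acid is named only for the rosette step, and no rosette culture made without it was analysed here, so its share in a difference cannot be told apart from that of the other factors.

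Retinoic acid is a vitamin A derivative that patterns the hindbrain and spinal cord. Cells take up retinol, oxidise it to retinal and then to retinoic acid, carry the acid on small binding proteins and break it down with CYP26 enzymes. In the nucleus it binds the receptors RARα, RARβ and RARγ, which pair with RXR receptors on DNA and turn on targets that include Rarb, Crabp2, Cyp26a1, Dhrs3 and Hox genes of the hindbrain and cervical cord. Several of these targets limit the signal, because they degrade retinoic acid or return its precursor to storage.

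Marker genes were checked against the labels. On the EpiSC array all 6 pluripotency markers, among them Pou5f1 at 13.02 and Nanog at 12.75, lay above 9.005, the median of all values, and on the other 5 arrays 0 of 6 did. All 6 rosette markers were above it in the rosette, all 6 OPC markers in both OPC arrays, and all 5 measured myelin markers in both oligodendrocyte arrays, with Mbp at 12.40 and 12.85 in oligodendrocytes, against 8.66 and 8.77 in OPCs. The OPC and rosette markers do not separate every label: all 6 OPC markers were also above the median in both oligodendrocyte arrays. Of the 6 rosette markers, 4 were above it in EpiSCs, 5 in both OPC arrays and 4 in both oligodendrocyte arrays. Markers of neurons were also high in the rosette, with a mean of 12.2 over 6 genes in the rosette, against 8.72 in EpiSCs. All values are log2 levels or log2 differences unless a fold is named. No detection call was used, so a low level cannot be told from array background, and levels of different genes cannot be compared on this array.

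**Figure D1:**
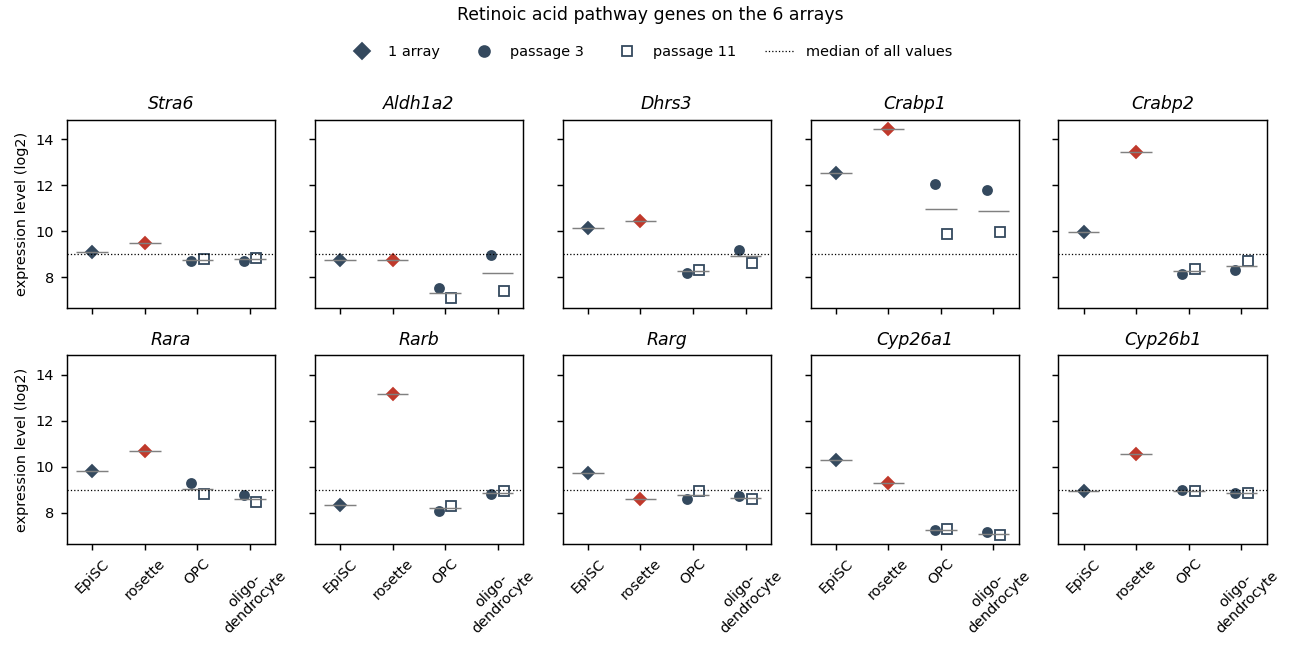
Log2 expression level of each of the 10 retinoic acid pathway genes (vertical axis) on the 6 arrays, in order of stage from EpiSC to oligodendrocyte. Each symbol is 1 array (red, rosette; circle, passage 3; open square, passage 11), grey bars are cell type means and the dotted line is the median of all values, 9.005. Rarb and Crabp2 stand high in the rosette alone, Cyp26a1 is highest in EpiSCs, and Crabp1 separates by passage.

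The pathway begins with uptake and synthesis. Stra6 encodes the membrane receptor that takes up retinol from its carrier in blood. Its level was 9.11 in EpiSCs, 9.48 in the rosette, 8.74 and 8.82 in OPCs, and 8.71 and 8.86 in oligodendrocytes, a range of 0.78 over the 6 arrays, which was the smallest of the 10. The rosette array was the highest, and the OPC and oligodendrocyte arrays overlapped. In OPCs Stra6 was 0.71 below the rosette (SE 0.17), which did not pass the test (limma adjusted p = 0.125).

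Aldh1a2 encodes the main retinal dehydrogenase of the embryo, which makes retinoic acid. Its level was 8.75 in EpiSCs and 8.75 in the rosette, 7.54 and 7.09 in OPCs, and 8.96 and 7.40 in oligodendrocytes. EpiSCs and the rosette were alike, both OPC arrays lay lower, and the 2 oligodendrocyte arrays were far apart. In OPCs the difference from the rosette was -1.44 (95% confidence interval -3.03 to 0.16) and did not pass the test (limma adjusted p = 0.383). All Aldh1a2 levels were under 9.005.

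Dhrs3 encodes a retinal reductase that turns retinal back into retinol and so limits synthesis. It had 10.14 in EpiSCs, 10.43 in the rosette, 8.21 and 8.34 in OPCs, and 9.20 and 8.65 in oligodendrocytes. EpiSCs and the rosette were high, and every OPC and oligodendrocyte array was lower than both. Dhrs3 fell in OPCs to 4.47-fold below the rosette (-2.16 ± 0.27, SE, adjusted p = 0.0221) and 3.63-fold below EpiSCs (-1.86 ± 0.27, adjusted p = 0.0210). Oligodendrocytes were above OPCs at both passages, by 0.99 at passage 3 and 0.31 at passage 11, and the mean difference of 0.65 did not pass (adjusted p = 0.336). Without the oligodendrocyte array of passage 11, which leaves a lone oligodendrocyte array, it was 0.93. Without that of passage 3, the lone array left was at 8.65, against an OPC mean of 8.275.

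The intracellular carriers were Crabp1 and Crabp2. Crabp2 encodes the binding protein that hands retinoic acid to its nuclear receptor. Its levels were 9.96 in EpiSCs, 13.45 in the rosette, 8.17 and 8.36 in OPCs, and 8.31 and 8.70 in oligodendrocytes. The rosette array exceeded every other array by at least 3.49, and EpiSCs stood above both later cell types. In OPCs Crabp2 fell by 5.19 relative to the rosette (SE 0.23, adjusted p = 0.0036) and by 1.69 relative to EpiSCs (SE 0.23, adjusted p = 0.0180). OPCs and oligodendrocytes overlapped.

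Crabp1 encodes the sister carrier, which holds retinoic acid in the cytoplasm. Its level was 12.52 in EpiSCs, 14.46 in the rosette, 12.05 and 9.90 in OPCs, and 11.80 and 9.96 in oligodendrocytes. It was again highest in the rosette, but in the later cell types the arrays divided by passage and not by cell type. The OPC minus rosette difference was -3.49 with an SE of 1.07 and did not pass (adjusted p = 0.205). With passage as a block, which takes the passage difference out of the spread, it passed (adjusted p = 0.0085). The difference was -4.56 without the OPC array of passage 3 and -2.42 without that of passage 11.

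The receptors followed 3 different courses. Rarb is both a retinoic acid receptor gene and a classic retinoic acid target. It had 8.35 in EpiSCs, 13.16 in the rosette, 8.10 and 8.31 in OPCs, and 8.82 and 8.94 in oligodendrocytes. It was under 9.005 on every array but that of the rosette. In OPCs Rarb fell by 4.95 relative to the rosette (SE 0.19, adjusted p = 0.0036), and its level differed from EpiSCs by -0.15 (95% confidence interval -0.62 to 0.32). Both oligodendrocyte arrays lay above both OPC arrays, by 0.72 at passage 3 and 0.63 at passage 11, and the mean difference of 0.67 did not pass (adjusted p = 0.188). It was 0.73 without the oligodendrocyte array of passage 3, which leaves a lone oligodendrocyte array. Without that of passage 11, the lone array left was at 8.82, against an OPC mean of 8.20.

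Rara encodes the most widely expressed of the receptors. Levels were 9.83 in EpiSCs, 10.70 in the rosette, 9.30 and 8.80 in OPCs, and 8.77 and 8.46 in oligodendrocytes, so the rosette was highest and the later cell types lowest. Rara fell in OPCs relative to the rosette by 1.65 (SE 0.27, adjusted p = 0.0483). That call was lost when genes dim on all arrays were left out (adjusted p = 0.0539). Relative to EpiSCs the OPC difference was -0.78 (adjusted p = 0.194), and it passed once passage was a block (adjusted p = 0.0477).

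Rarg encodes the receptor that is prominent in the early embryo. Unlike the other receptors it was highest in EpiSCs, at 9.72, against 8.61 in the rosette, 8.61 and 8.97 in OPCs, and 8.73 and 8.59 in oligodendrocytes. The rosette and both later cell types overlapped. In OPCs the difference from EpiSCs was -0.93 ± 0.22 (adjusted p = 0.0750), and that from the rosette was 0.18 (95% confidence interval -0.37 to 0.73).

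Breakdown of retinoic acid was represented by Cyp26a1 and Cyp26b1, which encode enzymes that oxidise it. Cyp26a1 levels were 10.31 in EpiSCs, 9.30 in the rosette, 7.25 and 7.30 in OPCs, and 7.17 and 7.03 in oligodendrocytes, a descending series over the stages. OPCs and oligodendrocytes differed by -0.17 (95% confidence interval -0.53 to 0.18). Cyp26a1 fell in OPCs by 3.04 relative to EpiSCs (SE 0.17, adjusted p = 0.0023) and by 2.03 relative to the rosette (SE 0.17, adjusted p = 0.0089).

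Cyp26b1 had 8.93 in EpiSCs, 10.58 in the rosette, 8.99 and 8.94 in OPCs, and 8.86 and 8.87 in oligodendrocytes. The rosette stood apart from the other 5 arrays, which lay between 8.86 and 8.99. Cyp26b1 fell in OPCs relative to the rosette by 1.61 (SE 0.16, adjusted p = 0.0136), and the OPC level was 0.03 above that of EpiSCs (95% confidence interval -0.38 to 0.45). Between EpiSCs and the rosette the 2 enzyme genes went opposite ways, with Cyp26a1 lower (-1.01) and Cyp26b1 higher (1.64) in the rosette. That sets 1 array against 1 array and was not tested.

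Receptors act at retinoic acid response elements, which are direct repeats of a 6-base unit, often with 5 bases between them (DR5) or 2 (DR2). The promoter windows of RefSeq (GRCm38.p6, 250 bases before to 50 bases after a gene's start) were searched on both strands for repeats of AGGTCA or AGTTCA or GGGTCA or GGTTCA. Of the 10 genes, 9 had at least 1 window, 18 windows in all, and Crabp2 was without one in the table. A DR5 was in 2 of the 18 windows, those of Rarb and Cyp26a1, and a DR2 was in 0, so that no motif overlapped another. Among all 32851 windows 32 held a DR5 (0.0974%) and 88 a DR2 (0.268%). Both elements are shown with 20 bases on each side, 5′ to 3′, with the repeat units in capitals, because these 2 genes with a like element had unlike levels across the stages. The Rarb stretch is on the gene's own strand (chr14:16575493-16575549, minus strand), and its element covers bases 53 to 37 before the start. The Cyp26a1 stretch is on the strand opposite to the gene (chr19:37697756-37697812, minus strand), where its element reads in the same direction, and it covers bases 32 to 16 before the start.
Rarb: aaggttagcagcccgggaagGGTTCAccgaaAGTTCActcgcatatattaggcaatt
Cyp26a1: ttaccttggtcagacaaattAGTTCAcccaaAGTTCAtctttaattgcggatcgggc

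The first comparison asked how the rosettes differed from the EpiSCs they came from. Of the 10 genes, 4 were at least 2-fold higher in the rosette, Rarb (4.81), Crabp2 (3.49), Crabp1 (1.94) and Cyp26b1 (1.64), against 6.91% of all genes. Another 2 were at least 2-fold lower, Rarg (-1.11) and Cyp26a1 (-1.01), against 3.69% of all genes. The other 4 differed by 0.87 (Rara), 0.37 (Stra6), 0.30 (Dhrs3) and 0.0042 (Aldh1a2). The median of the 10 differences was 0.62, and that of all genes was -0.07. At least 4-fold was reached by 2 of them, Rarb and Crabp2. This comparison has no replicate on either side and was not tested, so the counts describe 2 arrays.

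Of other genes that retinoic acid induces, part were higher in the rosette as well. Of 11 measured Hox genes of paralog groups 1 to 5, which set position in hindbrain and cervical cord, 8 were at least 2-fold higher and 0 lower, with a median of 2.68 (6.91% and 3.69% of all genes, as above, for this and the next 3 lists). Hoxb4 had 12.19 in the rosette, against 8.34 in EpiSCs, and Hoxb5 had 12.31 in the rosette, against 8.56 in EpiSCs. Hoxa2 and Hoxb2 were higher by 3.67 and 3.64. In a second list of 17 measured induced genes 5 were at least 2-fold higher and 0 lower, with a median of 0.25 and 6 of the 17 differences negative. The 5 were the homeobox genes Meis1 (12.33 in the rosette, against 8.70 in EpiSCs) and Meis2 (12.82, against 9.47), the zinc finger gene Tshz1 (11.96, against 8.76), the GDNF receptor kinase gene Ret (11.11, against 8.53) and the forkhead gene Foxa1 (10.09, against 9.05). The germ cell gene Stra8, induced by retinoic acid in the gonad, was at 6.29 in the rosette and 6.38 in EpiSCs.

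Receptor partners and cofactors varied more. Of 19 measured, 5 were at least 2-fold higher in the rosette and 1 lower. The orphan nuclear receptor genes Nr2f1 (2.54) and Nr2f2 (2.25), also known as retinoic acid targets, were higher, with Rorb (1.69), the coactivator gene Ncoa1 (1.05) and Nrip1 (1.03). Rxrg, which encodes an RXR partner of the receptors, was lower, at 7.91 in the rosette, against 10.23 in EpiSCs. Rxra and Rxrb differed by 0.67 and 0.32. Among 23 measured genes of retinoid transport, storage, synthesis and breakdown 0 were at least 2-fold higher and 1 lower, the retinol dehydrogenase gene Rdh10 (-1.14). Neuron markers moved with these differences, 6 of 6 above 9.005 in the rosette, against 1 of 6 in EpiSCs, and their part in the results was not tested. In such bulk cultures fewer cells of a type and less RNA per cell cannot be told apart.

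**Figure D2:**
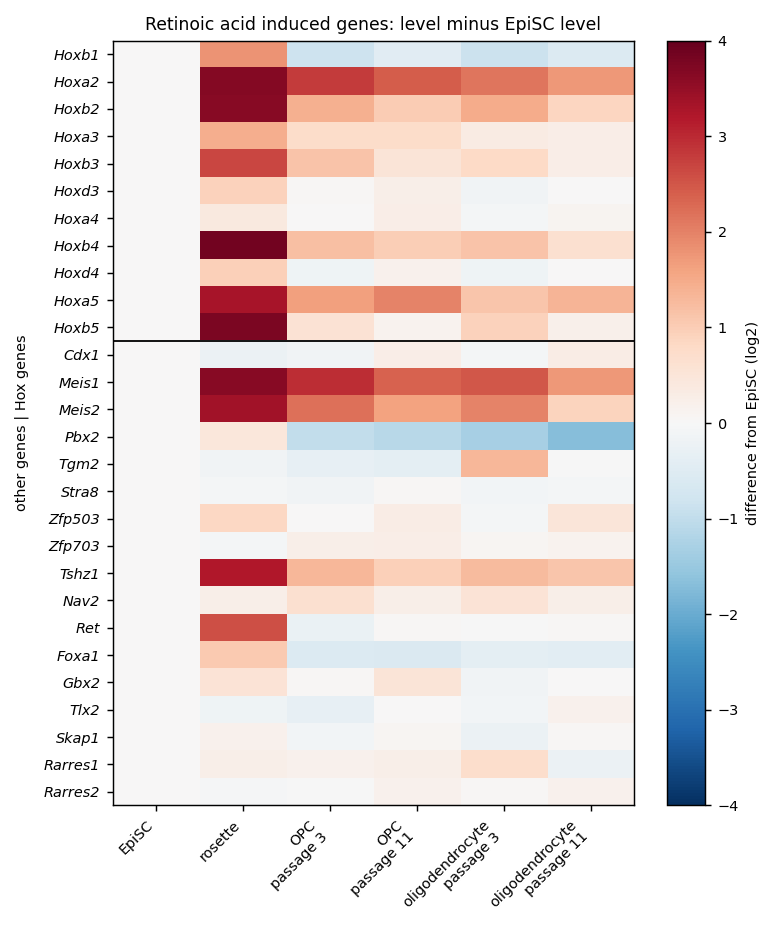
Log2 level minus the EpiSC level for 28 measured genes that retinoic acid induces (rows, Hox genes above the line and other genes below) on the 6 arrays (columns). Red is higher than in EpiSCs and blue is lower, and the rosette column holds the strongest red, with Hoxb4 at 3.85. Hoxa2 and Meis1 stay red in OPCs and oligodendrocytes, and Hoxb1 and Ret do not.

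The second comparison asked what became of the pathway when rosettes gave rise to OPCs. Of the 10 genes, 6 fell in OPCs (adjusted p under 0.05 over all genes), against 1.87% of all genes that fell, and 0 rose, against 1.26%. The 6 were Crabp2, Rarb, Dhrs3, Cyp26a1, Rara and Cyp26b1, which hold a carrier, 2 receptors, the retinal reductase and both breakdown enzymes. The median of the 10 differences was -1.84, and that of all genes was 0.02. Neuron markers moved with these differences: their mean was 9.87 and 9.44 in OPCs, against 12.2 in the rosette. All 6 were lower in OPCs, and 2 of the 6 passed, Nefm (-3.87, adjusted p = 0.0036) and Elavl4 (-1.67, adjusted p = 0.0156). Stmn2 (-4.59), Tubb3 (-2.78), Dcx (-1.32) and Syt1 (-1.23) were lower without passing. Their part in the results was not tested. The lone rosette array has no spread of its own, so the test assumes that it varies like the OPC and oligodendrocyte arrays. Without the OPC array of passage 3, or without that of passage 11, 2 of the 10 passed, Crabp2 and Rarb, and the other 4 had adjusted p from 0.0505 to 0.169.

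Of the 11 Hox genes 5 fell in OPCs and 0 rose, with all 11 differences negative and a median of -1.48 (8 fell with passage as a block, and 3 without the OPC array of passage 11). Hoxb5 was lower by -3.39 ± 0.36 (adjusted p = 0.0156), Hoxb4 by -2.76 ± 0.26 (adjusted p = 0.0114), Hoxb1 by -2.43 ± 0.24 (adjusted p = 0.0130) and Hoxb2 by -2.42 ± 0.32 (adjusted p = 0.0277, and 0.0875 without the OPC array of passage 11). In the second induced list 4 of 17 fell and 0 rose, with a median of -0.23 (1.87% and 1.26% of all genes, for each list here). They were Ret, with 8.25 and 8.57 in OPCs, against 11.11 in the rosette (adjusted p = 0.0073), Tshz1 at -2.05 (adjusted p = 0.0159), Foxa1 at -1.60 (adjusted p = 0.0141) and Pbx2 at -1.51 (adjusted p = 0.0328). Without the OPC array of passage 3, 2 of the 17 passed (Ret and Tshz1), and without that of passage 11, 1 did (Ret). Of the 19 partners and cofactors and of the 23 genes of transport, storage, synthesis and breakdown, 0 passed by limma in either direction, with 9 and 1 at an unadjusted p under 0.05. In the partner list 2 passed with passage as a block, a fit that called 1206 of all 19938 genes. How many of all genes had an unadjusted p under 0.05 was not counted here.

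OPCs were also set against EpiSCs, since both were grown with FGF2 and retinoic acid is named for neither. These differences share the OPC arrays with those above. The main fit called 1397 of all 19938 genes, and the fit with passage as a block called 2318. Of the 10 genes 3 were lower in OPCs, Cyp26a1, Dhrs3 and Crabp2, against 2.93% of all genes, and 0 were higher, against 4.07%. The count was 5 with passage as a block, which added Rara and Crabp1 (Crabp1 adjusted p = 0.0147), and 1, Cyp26a1, without either OPC array in turn. Rarb and Cyp26b1, both high in the rosette, differed between OPCs and EpiSCs by -0.15 and 0.03, with the intervals given above.

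In contrast to those 3 genes, several induced genes were higher in OPCs than in EpiSCs. For each list here, 4.07% of all genes were higher and 2.93% lower, and the block fit called 2318 of all 19938. Of the Hox genes 2 were higher, Hoxa2, with 10.49 and 10.11 in OPCs, against 7.70 in EpiSCs (2.60 ± 0.26, adjusted p = 0.0081), and Hoxa5, with 9.15 and 9.52 in OPCs, against 7.52 in EpiSCs (1.81 ± 0.23, adjusted p = 0.0155). With passage as a block 6 of the 11 were called, and without the OPC array of passage 11 only Hoxa2 was (Hoxa5 adjusted p = 0.0648). Of the second list Meis1 was higher by 2.66 ± 0.40 (adjusted p = 0.0239, and 0.0563 without the OPC array of passage 3) and Tshz1 by 1.15 ± 0.22 (adjusted p = 0.0462). Tshz1 was not called without dim genes (adjusted p = 0.0512), without the OPC array of passage 3 (adjusted p = 0.208) or without that of passage 11 (adjusted p = 0.0988). With passage as a block 4 of the 17 were called. Among partners and cofactors Ncoa1 (1.80 ± 0.18, adjusted p = 0.0077), Nr2f1 (1.79 ± 0.19, adjusted p = 0.0095) and Rorb (1.63 ± 0.18, adjusted p = 0.0097, and 0.0636 without the OPC array of passage 11) were higher. Rxrg was lower, with 7.59 and 7.54 in OPCs, against 10.23 in EpiSCs (adjusted p = 0.0041). The block fit called 7 of the 19. The lone gene of transport, storage, synthesis and breakdown that passed was Rbp4, which encodes the plasma retinol carrier, with 7.45 and 7.53 in OPCs, against 8.61 in EpiSCs (adjusted p = 0.0391). Its call was lost without either OPC array. The fit without dim genes did not test Rbp4, which was itself left out as dim. It lies outside the rule for named genes, because both sides were dim.

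**Figure D3:**
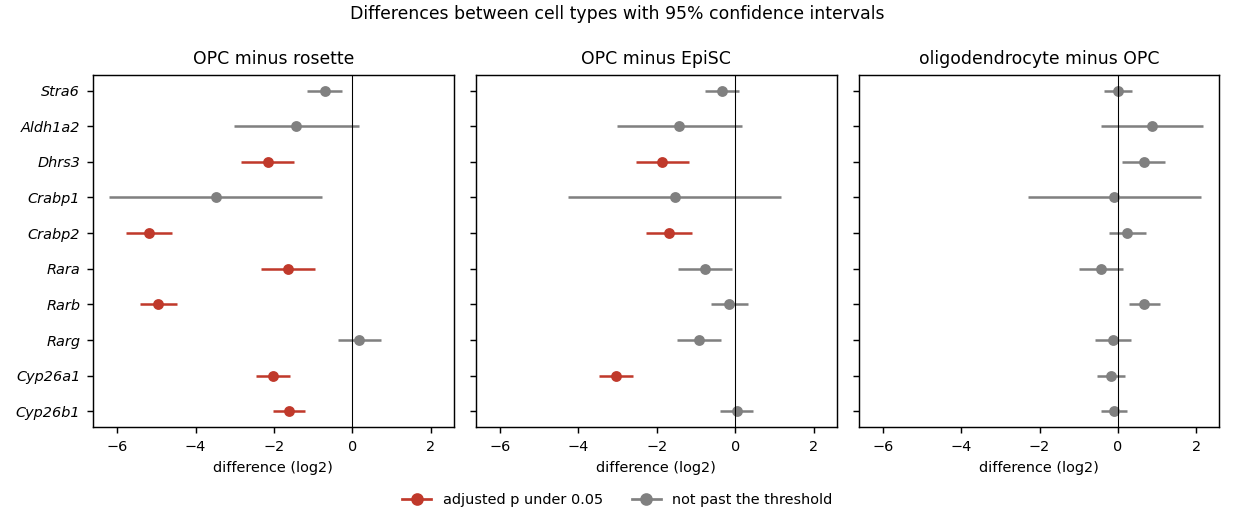
Log2 differences of the 10 genes (rows) for OPC minus rosette, OPC minus EpiSC and oligodendrocyte minus OPC, with 95% confidence intervals from limma as bars. Red marks an adjusted p under 0.05: 6 genes, all lower in OPCs, in the first panel, 3 in the second and 0 in the third. The interval of Crabp1 is the widest in each panel.

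The third comparison asked whether the pathway changed again when OPCs became oligodendrocytes. By limma 0 of the 10 genes passed, against 0.396% of all genes that rose and 0.0502% that fell. That fit does not pair the arrays by passage, and passage as a block, which does, changed no call among the 10 here. At an unadjusted p under 0.05 there were 2, Rarb and Dhrs3, both higher in oligodendrocytes. The share of all genes at that level was not counted for this comparison. The 10 mean differences ran from -0.44 (Rara) to 0.87 (Aldh1a2), with a median of -0.04, and that of all genes was 0.00. Aldh1a2 was higher in oligodendrocytes by 1.42 at passage 3 and by 0.31 at passage 11 (mean difference adjusted p = 0.625). Without the oligodendrocyte array of passage 11, which leaves a lone oligodendrocyte array, it was higher by 1.65. Without that of passage 3, the lone array left was at 7.40, against an OPC mean of 7.32. Markers of mesenchymal or meningeal cells moved with Aldh1a2. Their mean over 8 genes was 9.58 in passage 3 oligodendrocytes, against 9.02 in passage 3 OPCs. Dcn was at 10.07 in those oligodendrocytes, against 8.49 in the OPCs. Astrocyte markers were mixed, with 6 of 6 above the median in passage 3 oligodendrocytes, against 4 of 6 in passage 3 OPCs. Gfap (10.50 in those oligodendrocytes, against 8.11 in the OPCs) and Aqp4 (9.89, against 8.27) were higher. Aldh1l1 (10.71, against 11.25), Slc1a3 (12.33, against 12.92), Slc4a4 (11.7, against 11.9) and Slc1a2 (9.61, against 9.62) were lower. Col3a1, a fibroblast collagen gene, had 9.17 in those oligodendrocytes, against 9.16 in the OPCs, and the part of either cell type in the result was not tested.

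A relative of the 10 differed more between these cell types than any of them. Aldh1a1, which encodes another retinal dehydrogenase, had 9.39 and 10.59 in oligodendrocytes, against 7.53 and 8.002 in OPCs. Its difference of 2.23 ± 0.42 did not pass (adjusted p = 0.145), and it was singled out after its values were seen. In all 4 other lists 0 genes passed in this comparison. An unadjusted p under 0.05 was found in 2 of 23 genes of transport, storage, synthesis and breakdown and 1 of 19 partners and cofactors. It was also found in 3 of 11 Hox genes and 1 of 17 other induced genes. The share of all genes at that level was not counted, so these counts have nothing to be set against.

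The last comparison set passage 11 against passage 3, with cell type as a covariate. By limma 0 of the 10 genes passed, against 0% of all genes that rose and 0% that fell, and 3 of the 10 and 2769 of all genes had an unadjusted p under 0.05. The 3 were Crabp1, Rara and Aldh1a2, all lower at passage 11. Crabp1 was lower by -2.15 in OPCs and -1.84 in oligodendrocytes (mean -1.99, adjusted p = 0.280). Of all genes, 99.9% had a smaller passage difference than Crabp1 in OPCs and 99.2% in oligodendrocytes. Aldh1a2 was lower by -0.45 in OPCs and -1.56 in oligodendrocytes, and Rara by -0.50 and -0.31. The median absolute passage difference of the 10 was 0.20 in OPCs and 0.23 in oligodendrocytes, and that of all genes was 0.15 and 0.22.

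Marker means of neurons and astrocytes were lower at passage 11, as Crabp1 was, but single markers went both ways. The neuron marker mean was 9.44 in passage 11 OPCs, against 9.87 in passage 3 OPCs, and 9.25 in passage 11 oligodendrocytes, against 10.07 in passage 3 oligodendrocytes. Stmn2, a neuronal microtubule gene, had 7.82 in passage 11 OPCs, against 10.48 in passage 3 OPCs, and 8.12 in passage 11 oligodendrocytes, against 12.56 in passage 3 oligodendrocytes. It was also at 12.79 in EpiSCs. In OPCs Syt1 (10.82, against 10.52), Elavl4 (9.81, against 9.73) and Nefm (8.09, against 8.07) were higher at passage 11. Tubb3 (8.93, against 8.96) and Dcx (11.20, against 11.47) were lower there. In oligodendrocytes Tubb3 was higher at passage 11 (10.32, against 9.11), and Dcx, Elavl4, Syt1 and Nefm were lower. The astrocyte marker mean was 9.83 in passage 11 OPCs, against 10.34 in passage 3 OPCs, and 10.02 in passage 11 oligodendrocytes, against 10.80 in passage 3 oligodendrocytes. Aldh1l1 fell most in OPCs (8.65, against 11.25), and Gfap was level there (8.11). Slc1a2 was higher at passage 11 in OPCs (9.87, against 9.62) and in oligodendrocytes (10.41, against 9.61). Their part in the Crabp1 difference was not tested.

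**Figure D4:**
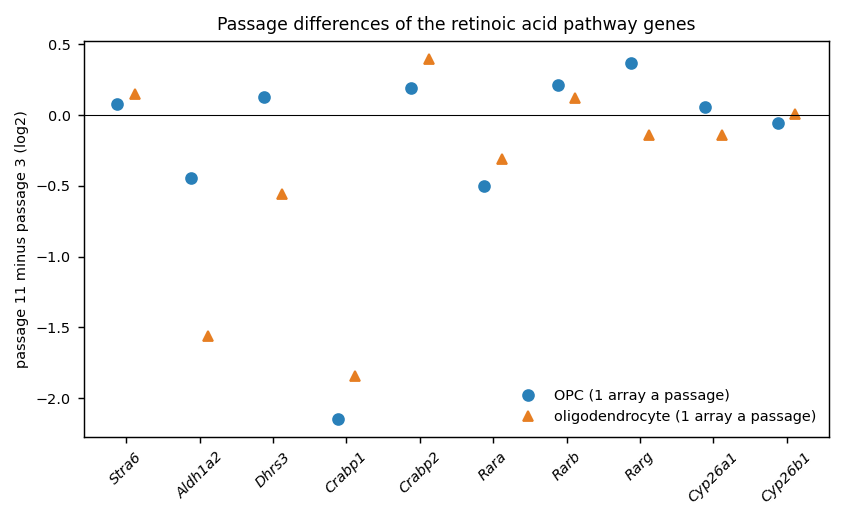
Passage 11 minus passage 3 difference (log2, vertical axis) of each of the 10 genes in OPCs (circles) and oligodendrocytes (triangles), each from 1 array a passage. Crabp1 is lowest in both cell types, at -2.15 and -1.84, and Rarg and Dhrs3 lie on opposite sides of 0.

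Genes with the most similar course were sought among 1550 genes that span at least 4-fold over the 6 arrays, by the root mean square difference between profiles centred on their own means. The nearest to Rarb were Nhlh1 (0.25), Neurod4 (0.30) and Glra1 (0.32). Nhlh1 had 11.45 in the rosette, and between 7.03 and 7.46 on the other 5 arrays. The nearest to Crabp2 were Chrna3 (0.39), Glra1 (0.50) and Mab21l2 (0.54). Crabp1 had no such close profile: the nearest were Tvp23a (0.57), Ndnf (0.67) and Cers6 (0.68). Tvp23a followed the passage split too, with 8.28 in passage 11 OPCs, against 9.25 in passage 3 OPCs, and 8.21 in passage 11 oligodendrocytes, against 9.20 in passage 3 oligodendrocytes. These likenesses rest on 6 arrays and are descriptions.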

How the data were processed

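The deposited values are log2 expression levels. The submitters' processing notes name RMA and the Affymetrix Expression Console for making them. RMA corrects background, equalises the arrays and summarises the probes of a transcript. Its version was not given in those notes, and no detection call was used. The 6 arrays held 35556 transcripts with values from 3.26 to 14.9 and none missing. Of these, 21789 carried exactly 1 gene symbol, 1621 several and 12146 none. Entrez IDs of 21698 were found in the RefSeq gene table, which changed 0 symbols. Where 999 genes had several transcripts, the one with the highest mean was kept, leaving 19938 genes. Some listed genes were not analysed here, and each list is counted over its measured members.

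Tests used limma 3.58.1 under R 4.3.3: moderated linear models (lmFit, then eBayes), two-sided, with Benjamini-Hochberg adjustment over all genes. The 6 arrays entered 1 fit by cell type, with 2 residual and 3.32 prior degrees of freedom. The passage fit used the 4 OPC and oligodendrocyte arrays, with 1 residual and 3.19 prior degrees of freedom. Its p-values set the mean passage difference against how far the cell types disagree on it, a spread moderated over all genes. Errors are SEs of the fits. Beyond passage, the labels name no separate origin for the arrays of a group, so a p-value here reflects the spread of these arrays alone. In the cell type fit that spread holds the passage difference, because the arrays of a group differ in passage. What else it holds may be technical. Per the labels, oligodendrocytes of a passage came from OPCs of that passage, which pairs the arrays, and their passage differences correlated at 0.503 over genes.

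Genes named beside the 10 are, for each list and comparison, up to 4 a direction with the largest difference among those called (at least 2-fold for the rosette against EpiSCs) and a brighter side above the median of all values, and the 3 nearest profiles of Rarb, Crabp1 and Crabp2. The marker genes, Foxa1 and Nrip1 in the rosette comparison, Stra8, Rxra, Rxrb, Rbp4 and Aldh1a1 were named outside that rule. The 10 genes and the lists were chosen with earlier results of these data known. Alternatives were passage as a block, each OPC or oligodendrocyte array left out, dim genes left out, the mean over transcripts, an intensity trend, centring on array medians, a 4-fold limit, and the 4 later arrays alone.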

Additional observations from a re-analysis of the deposited data

Results flagged for a closer look

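In 2 of the 10 genes the passage difference had opposite signs in the 2 cell types, with at least 0.1 on each side, a limit chosen after the data were seen. Rarg was 0.37 higher at passage 11 in OPCs and lower by -0.14 in oligodendrocytes. Dhrs3 was 0.13 higher at passage 11 in OPCs and lower by -0.55 in oligodendrocytes. Each difference compares 1 array with 1 array, and the difference between the cell types was not tested.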

How the results depend on the processing

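Of 355 recomputed differences of the 10 genes, 320 kept their call, and none of those past the threshold changed direction. The 355 include the mean over transcripts, which cannot alter a difference of a gene with 1 transcript. At a 4-fold limit 2 of the 10 genes, and 507 of all genes, differed between the rosette and EpiSCs, against 6 and 2113 at 2-fold. For OPCs against the rosette, all genes called numbered 624, and 1206 with passage as a replicate block. Leaving out 1 array in turn gave 2 to 9 of the 10 genes and 156 to 2897 of all genes. For OPCs against EpiSCs, 1397 of all genes were called, and 2318 with the block, with 5 of the 10 genes, while leaving out 1 array gave 1 to 6 of the 10 and 470 to 4154 of all. For oligodendrocytes against OPCs, 89 of all genes were called, 20 without dim genes and 157 after centring, and leaving out 1 array gave 0 to 2 of the 10 and 2 to 2919 of all. Between passages 0 of all genes were called, 1 with an intensity trend and 2 after centring. Leaving out an oligodendrocyte array does not touch the differences of OPCs from the rosette or from EpiSCs. It leaves the OPC arrays as the only pair, so the spread that the moderated fit pools over all genes weighs more. The calls it added are not read as results. They were Crabp1, Stra6 and Aldh1a2 against the rosette and Rara, Rarg and Aldh1a2 against EpiSCs. Of 144 recomputed differences of the other named genes 13 were lost, 11 of them without an OPC array. Each of the 10 genes has 1 transcript, so the mean over transcripts left their differences as they were and is no test of them. The 4 later arrays alone changed no call among the 10. Among the 10 the block changed no call other than those given in the report. The number of arrays limits the precision, and a fold change that involves a level near background can be compressed.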
